A study of Mus musculus with 6 samples.

Results

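The genes described here encode secreted growth factors that act on blood and lymphatic vessels: Vegfa, Vegfb, Vegfc and Pgf of the VEGF family, the angiopoietins Angpt1 and Angpt2, the angiopoietin-like proteins Angptl2 and Angptl4, and the PDGF chain Pdgfa. They were chosen by name, with earlier results of these data known, and every probe set annotated to exactly 1 of them was taken. Of the 9 genes, 8 were represented, by 15 probe sets, among 18193 genes named alone in the table. No probe set naming Angptl2 was matched, and Angptl2 was not analysed here.

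RNA of 3T3-L1 cells, mouse embryo fibroblasts widely used as a culture model of fat cell formation, was measured on 6 one-colour oligonucleotide arrays. One group is 3 untreated control cultures, and the other is 3 cultures treated with resveratrol, a plant polyphenol. Dose, duration, differentiation state and any further agent are not in the labels, and all cultures are of this 1 line. The comparison is of resveratrol-treated with untreated cells. Whether the cultures of a group were independent is not stated, and the p-values then cover only the spread among these 6 arrays, whose small number limits the precision.

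VEGF-A is the main growth signal for blood vessel endothelium, acting through VEGFR2 (Kdr), while VEGF-B and placental growth factor bind VEGFR1 (Flt1). VEGF-C and VEGF-D bind VEGFR3 (Flt4) and are best known for the growth of lymphatic vessels. Angiopoietin 1 activates the endothelial receptor Tie2 (Tek), and angiopoietin 2 can oppose it. ANGPTL4 inhibits lipoprotein lipase, the enzyme that frees fatty acids from blood lipoproteins. Fat tissue grows together with its vessels, and adipocytes secrete several of these factors. Transcription of Vegfa and Angptl4 is induced by low oxygen, and that of Angptl4 also by the PPAR receptors.

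Every array had been scaled to a trimmed mean intensity of 150. The mean log2 signal of the 18 hybridisation spike probe sets ranged from 10.01 to 11.03, and the widest gap put control replicates 1 and 2 and resveratrol replicate 1 on the brighter side and the other 3 arrays on the dimmer side, so both groups lie on both sides. The 3′ minus 5′ log2 difference of the Gapdh control probe sets ran from -0.33 to -0.27 in control and from -0.46 to -0.34 in treated cells, and that of the actin probe sets from 0.31 to 0.35 and from 0.26 to 0.37. The Gapdh values of the groups did not overlap, by a narrow margin, and the actin values did; the part of this in the results was not tested. Adipocyte markers were bright in both groups, with a summed intensity over 8 genes of 35183 to 51582 in control and 33826 to 41026 in treated cells. Of these 8, 2 fell and none rose in limma, with a median of -0.27: the glucose transporter gene Slc2a4 had -1.19 (adjusted p = 0.000172) and the lipid droplet gene Cidec -0.57 (adjusted p = 0.00780). Of 6 tested markers of preadipocytes and fibroblasts, Thy1 rose by 0.40 (adjusted p = 0.00780) and none fell. The median of this list was 0.004. Col1a1 had -0.32 (adjusted p = 0.0757 from limma), Col3a1 -0.29 and Pdgfra -0.07, while Dlk1 had 0.08 and Pdgfrb 0.18. Of 11 endothelial marker genes, 8 were too dim to be tested, among them Pecam1 at 5.50 and 5.30 and Tie1 at 2.63 and 0.767 (control and treated mean intensity), and the summed level of all 11 was 129 to 178 and 138 to 185. Macrophage markers summed to 307 to 375 over 8 genes in control and 410 to 479 in treated cells. Of the 6 macrophage markers tested 1 passed, Cd14 at 0.47 on the log2 scale (adjusted p = 0.0365 from limma, but 0.126, 0.0716, 0.142 and 0.108 without control replicate 2 or 3 or resveratrol replicate 1 or 2), and Ptprc, which marks all leukocytes, lay at 10.6 and 6.40. In bulk RNA, fewer cells of a type and less RNA per cell cannot be told apart.

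Resveratrol-treated cells had more Vegfc and less Angptl4 transcript, and less Vegfa on 1 of its 2 probe sets, while Vegfb, Angpt1, Angpt2 and Pdgfa did not pass the test. Of the 15 probe sets, 12 were bright enough to be tested, with a mean intensity of at least 20.4. Of these 12, 2 rose and 2 fell with an adjusted p under 0.05, where 8.17% of all 27022 probe sets tested passed, 3.95% as higher and 4.22% as lower. Taking the brightest probe set for each of the 7 genes tested, Vegfc rose and Angptl4 fell, where 10.5% of all 12630 genes tested passed, 5.32% as higher and 5.21% as lower. The 3 control and 3 treated arrays did not overlap for 5 of the 12 probe sets, 2 higher and 3 lower, where 26.4% of all probe sets tested did not, 13.8% as higher and 12.6% as lower. Changes are given as log2 of (intensity + 16), resveratrol minus control, with standard errors and Benjamini-Hochberg adjusted p-values over all probe sets from limma.

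**Figure D1:**
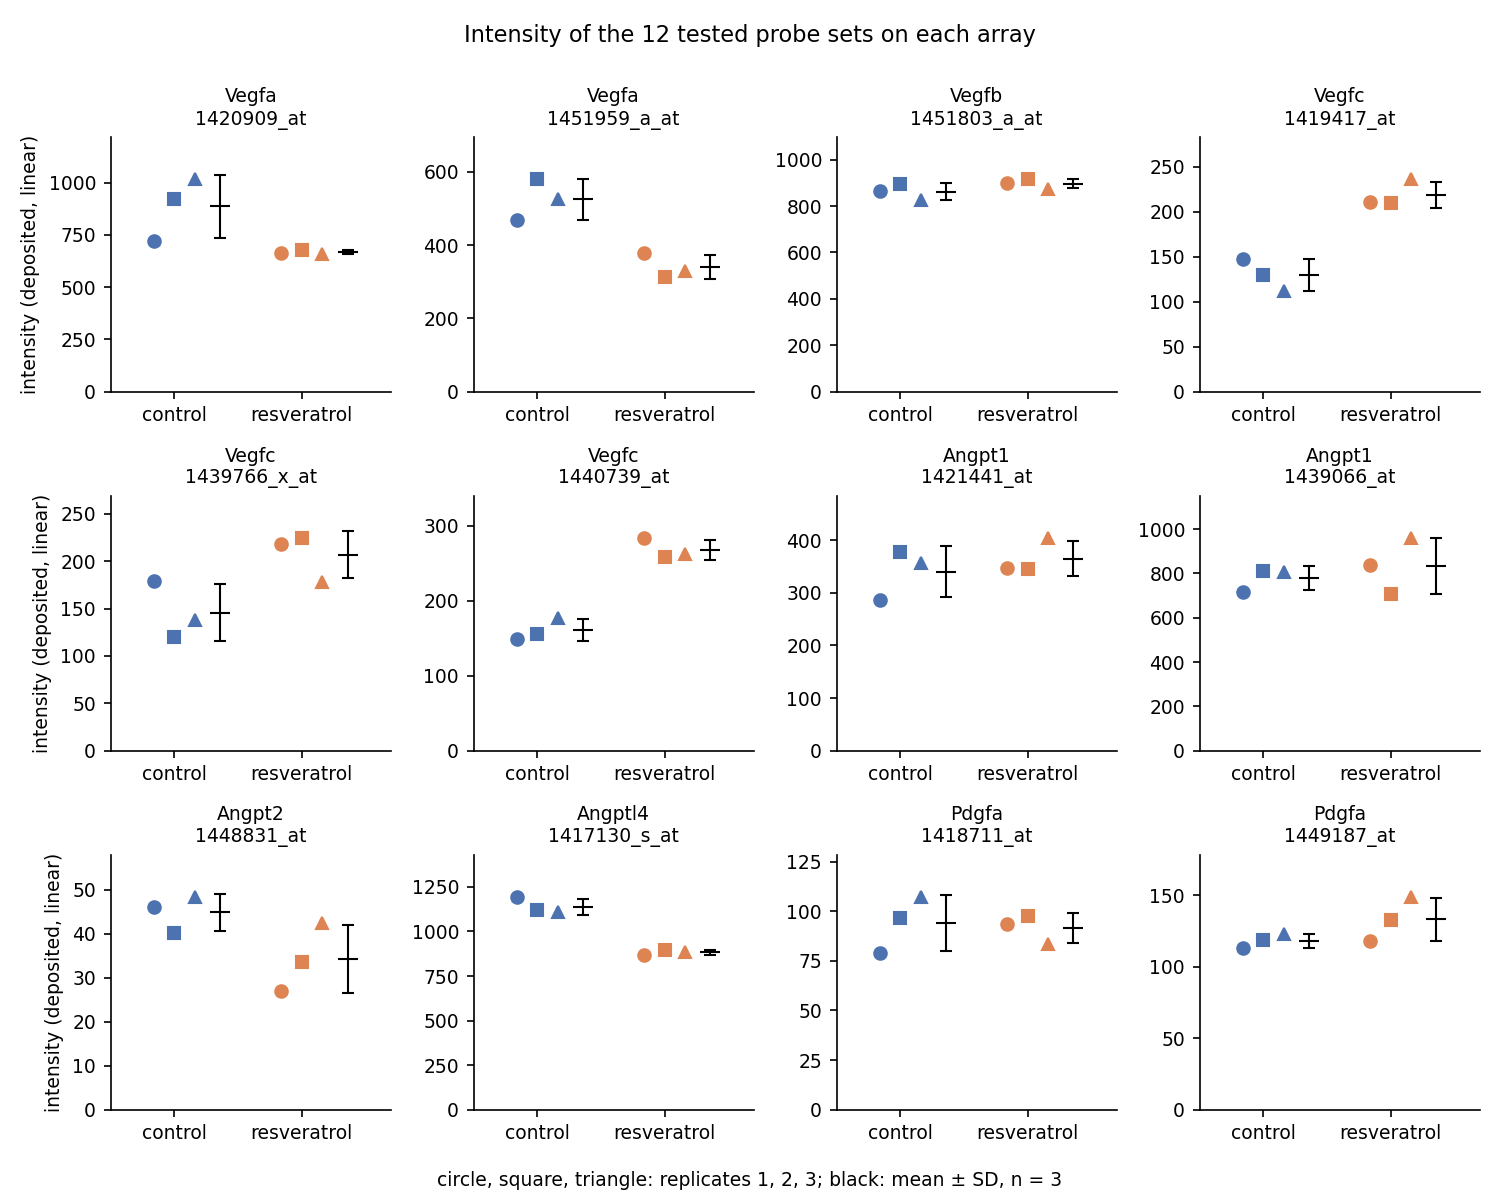
Deposited intensity (linear, y axis from 0) of each of the 12 tested probe sets on each array, with circles, squares and triangles for replicates 1, 2 and 3 and black bars for the mean ± SD (n = 3). The treated arrays lie wholly above the controls for 2 Vegfc probe sets and wholly below them for both Vegfa probe sets and for Angptl4.

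The start regions of Vegfa, Vegfb and Vegfc are shown because Vegfa and Vegfc moved in opposite directions on the same arrays, while their relative Vegfb did not pass. They are the 250 bases before the outermost RefSeq transcription start on GRCm38.p6, written 5′ to 3′ in the direction of transcription. Capitals mark the hypoxia response element core, searched as ACGTG and GCGTG on both strands. The motifs overlap only in that CGTG is common to both, and CACGTG would count on each strand. Vegfa lies at chr17:46032378-46032627 (minus strand), Vegfb at chr19:6987652-6987901 (minus strand) and Vegfc at chr8:54077282-54077531 (plus strand).
Vegfa: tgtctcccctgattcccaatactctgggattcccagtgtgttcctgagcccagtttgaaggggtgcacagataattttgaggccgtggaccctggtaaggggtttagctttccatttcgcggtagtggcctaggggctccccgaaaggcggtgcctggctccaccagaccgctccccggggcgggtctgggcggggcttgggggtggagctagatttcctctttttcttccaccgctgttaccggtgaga
Vegfb: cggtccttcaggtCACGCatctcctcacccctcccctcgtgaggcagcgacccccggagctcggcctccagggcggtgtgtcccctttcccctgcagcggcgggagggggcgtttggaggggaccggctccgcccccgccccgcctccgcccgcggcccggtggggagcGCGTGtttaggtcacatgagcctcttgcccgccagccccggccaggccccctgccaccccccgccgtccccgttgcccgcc
Vegfc: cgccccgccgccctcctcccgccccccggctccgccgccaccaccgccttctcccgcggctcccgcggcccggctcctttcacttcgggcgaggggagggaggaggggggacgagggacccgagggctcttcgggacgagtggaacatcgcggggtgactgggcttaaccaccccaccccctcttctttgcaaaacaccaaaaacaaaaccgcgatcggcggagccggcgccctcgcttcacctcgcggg
The Vegfb window held GCGTG 2 times, and the printed windows of Vegfa and Vegfc held neither motif. A second RefSeq start of Vegfa lies inside the gene, and the region before it, chr17:46025164-46025413, held ACGTG 1 time and GCGTG 1 time; it is not printed. Among 32851 start regions of the same length, 16.6% held ACGTG, 28.2% held GCGTG and 38.6% held either. The 3 windows were rich in G and C, at 59.2% for Vegfa, 76.4% for Vegfb and 71.6% for Vegfc, against a median of 52.4% over all start regions. These counts describe the letters of these windows only, and elements farther from the start were not searched.

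Vegfa, the main factor for blood vessel growth, was lower after resveratrol on both of its probe sets, and 1 of the 2 passed. The dimmer probe set read 469, 579 and 527 on control replicates 1 to 3 and 378, 314 and 330 on resveratrol replicates 1 to 3. All 3 treated arrays lay below the lowest control. Its mean intensity was 525 ± 55.3 in control and 341 ± 33.3 in treated cells (SD, n = 3). On the log2 scale it fell by 0.60 ± 0.10 (SE), with adjusted p = 0.00384. The brighter probe set read 723, 922.5 and 1015.5 in control cells and 666, 680 and 658.5 in treated cells. The treated arrays were close together and again below every control, but the controls were spread and control replicate 1 came near the treated level. The means were 887 ± 150 and 668 ± 11.0 (SD, n = 3), and the log2 difference was -0.39 ± 0.11 (SE) with a 95% interval of -0.63 to -0.15 and adjusted p = 0.0523. That value missed the threshold, and without control replicate 1 it was -0.52 with adjusted p = 0.00421. Over its alternatives the adjusted p ranged from 0.00421 to 0.167, with 8 of 17 under the threshold. With the mean of both probe sets the gene changed by -0.49 and passed (adjusted p = 0.00699). The log2 ratio of the dimmer to the brighter probe set within an array was -0.61, -0.66 and -0.93 in control and -0.79, -1.08 and -0.96 in treated cells, so the groups overlapped in this ratio. The adipocyte markers Slc2a4 and Cidec fell on the same arrays, and their part in the Vegfa result was not tested.

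Vegfb, which acts through VEGFR1, did not pass. Its single probe set read 867, 896 and 825 in control and 900, 915 and 876 in treated cells. The 2 groups overlapped. The log2 difference was 0.06 ± 0.07 (SE, adjusted p = 0.719), with a 95% interval of -0.10 to 0.21. Within each array, the log2 ratio of the dimmer Vegfa probe set to Vegfb was -0.87, -0.62 and -0.63 in control and -1.22, -1.50 and -1.37 in treated cells. This ratio, of values with the offset of 16 added, was chosen after the values were seen and is given with no test. It moved by -0.66. With the brighter Vegfa probe set the ratio was -0.26, 0.04 and 0.30 in control and -0.43, -0.42 and -0.40 in treated cells. That ratio moved by -0.44 and also carries no test. Pgf, which encodes placental growth factor, was below the level tested, at 3.23, 2.50 and 2.40 in control and 3.30, 3.90 and 5.50 in treated cells, all near the bottom of the scale. Without the filter on dim probe sets Pgf had 0.11 ± 0.09 (adjusted p = 0.652).

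Vegfc, a ligand of VEGFR3, was the only one of the 7 genes tested that rose. Its brightest probe set read 148, 156 and 177 in control cells and 283, 259 and 262 in treated cells. Every treated array was above every control. The mean was 160 ± 14.6 in control and 268 ± 13.2 in treated cells (SD, n = 3), and the log2 change 0.69 ± 0.09 (SE) with adjusted p = 0.00131. A second probe set, the dimmest of the 3, read 148, 129 and 112 in control and 211, 210 and 236 in treated cells, again without overlap. It changed by 0.69 ± 0.11 with adjusted p = 0.00353. These 2 probe sets ranked 176 and 175 by size among the 14028 probe sets that were higher in treated cells. The third carries the suffix for probes that may cross-hybridise and read 179, 120 and 138 in control and 218, 224 and 178 in treated cells. Control replicate 1 and resveratrol replicate 3 met at the same level, and its change of 0.47 ± 0.14 did not pass (adjusted p = 0.0609). Without control replicate 1 it was 0.61 with adjusted p = 0.0151. Over its alternatives the adjusted p ranged from 0.0151 to 0.205, with 3 of 17 under the threshold. The summed macrophage markers, at 307 to 375 and 410 to 479, were also higher on every treated array. Of the 8 genes summed, Adgre1 (mean 42.4 in control and 40.6 in treated cells) and Ptprc (10.6 and 6.40) were lower and the others higher. Of the 6 tested only Cd14 passed, a call lost when some single arrays were left out. The part of these markers in the Vegfc and Vegfd results was not tested.

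Vegfc and Vegfa moved in opposite directions on the same arrays. The log2 ratio of the brightest Vegfc to the dimmer Vegfa probe set within an array was -1.56, -1.79 and -1.50 in control and -0.40, -0.26 and -0.32 in treated cells, a shift of 1.29. Against the brighter Vegfa probe set the shift was 1.08, from -2.35 ± 0.16 in control to -1.27 ± 0.08 in treated cells (SD, n = 3). Only the shift can be read, since the levels of different probe sets are not comparable. Both ratios were chosen after the values were seen and carry no test.

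**Figure D2:**
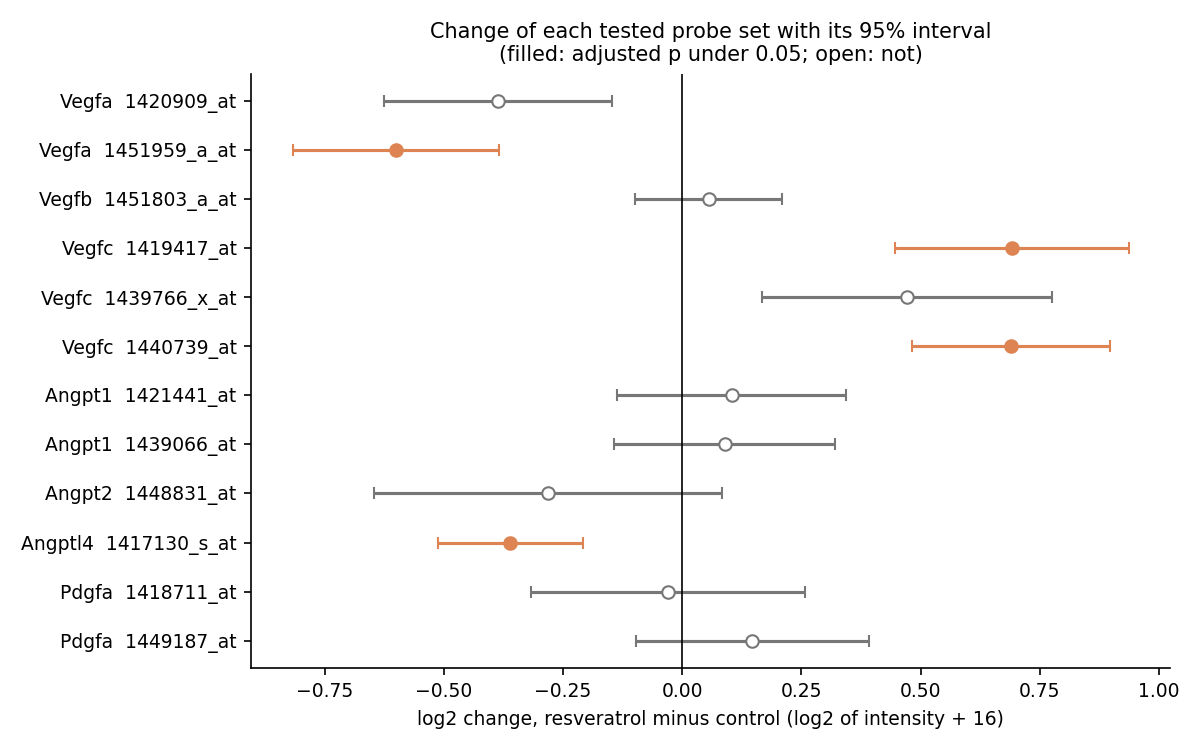
Log2 change (resveratrol minus control, on log2 of intensity + 16) of the 12 tested probe sets with 95% intervals from limma, filled where the adjusted p was under 0.05. The intervals of Vegfa lie below 0 and those of Vegfc above 0 on every probe set, while those of Vegfb, Angpt1, Angpt2 and Pdgfa include 0.

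Vegfd, the other VEGFR3 ligand and the closest relative of Vegfc, rose on all 3 of its probe sets. The brightest read 658, 631 and 674 in control and 1193, 1087 and 1246 in treated cells. The groups were far apart, by 0.83 ± 0.08 (SE) on the log2 scale, with adjusted p = 0.000108. The other probe sets of Vegfd had 0.58 and 0.57, with adjusted p = 0.00201 and 0.000949. Of the 3 tested genes among the other VEGF and PDGF ligands, Vegfd was the only one to pass. Pdgfc had 0.24 (adjusted p = 0.205) and Pdgfb -0.18 (adjusted p = 0.554), and Pdgfd was too dim to be tested. The median of these 3 was 0.24, where the median of all genes tested was 0.02.

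The angiopoietins did not pass. Angpt1, the Tie2 activator, had its brighter probe set at 717, 812 and 806 in control and 839, 706 and 958 in treated cells, with overlapping groups and a log2 difference of 0.09 ± 0.11 (adjusted p = 0.700, 95% interval -0.14 to 0.32). Its dimmer probe set read 285, 378 and 357 against 348, 344 and 403, a difference of 0.10 ± 0.11 (adjusted p = 0.656). Angpt2, the Tie2 ligand that can oppose Angpt1, was dim. It read 46.1, 40.1 and 48.2 in control and 27.0, 33.5 and 42.4 in treated cells on its tested probe set, with resveratrol replicate 3 inside the control range. The difference was -0.28 ± 0.17 (adjusted p = 0.369), and its interval of -0.65 to 0.08 includes both 0 and the change of either Vegfa probe set. The second Angpt2 probe set lay between 1.27 and 8.20 on the 6 arrays and was not tested.

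Pdgfa, a ligand of the PDGF receptors that fibroblasts carry, did not pass. The brighter probe set read 113, 118.5 and 123 in control and 118, 133 and 148.5 in treated cells, a log2 difference of 0.15 ± 0.11 (adjusted p = 0.506). The dimmer one read 79.1, 96.6 and 107 against 93.4, 97.8 and 83.3, a difference of -0.03 ± 0.13 (adjusted p = 0.928). The groups overlapped on both.

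Angptl4, the inhibitor of lipoprotein lipase, fell. Its only tested probe set carries a suffix (_s_at) for probes that may cross-hybridise. It read 1191, 1118 and 1109 in control and 869, 894 and 887 in treated cells. The spread within each group was small, and all treated arrays were below all controls. The mean was 1139 ± 45.0 in control and 883 ± 13.0 in treated cells (SD, n = 3), which is -22.5%, and the log2 change was -0.36 ± 0.07 (SE) with adjusted p = 0.00917. Without an intensity trend in the variance the adjusted p was 0.0709, and over the 17 alternatives with a test it ranged from 0.00371 to 0.0709. The other Angptl4 probe set lay between 5.40 and 15.9 and was not tested. The part of the adipocyte markers, with their median of -0.27, in the Angptl4 result was not tested. Among 3 other tested genes of the angiopoietin and angiopoietin-like families, Angptl1 fell, at 138, 120 and 143 in control and 83.3, 95.3 and 100.1 in treated cells, a log2 change of -0.46 ± 0.12 with adjusted p = 0.0348. That call ended without control replicate 1 (adjusted p = 0.0815), control replicate 3 (0.100) or resveratrol replicate 1, 2 or 3 (0.125, 0.0885 and 0.0515). With each gene as the mean over its probe sets no gene of this list passed. Angptl6 had -0.18 (adjusted p = 0.357) and Angpt4 0.05 (adjusted p = 0.876).

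**Figure D3:**
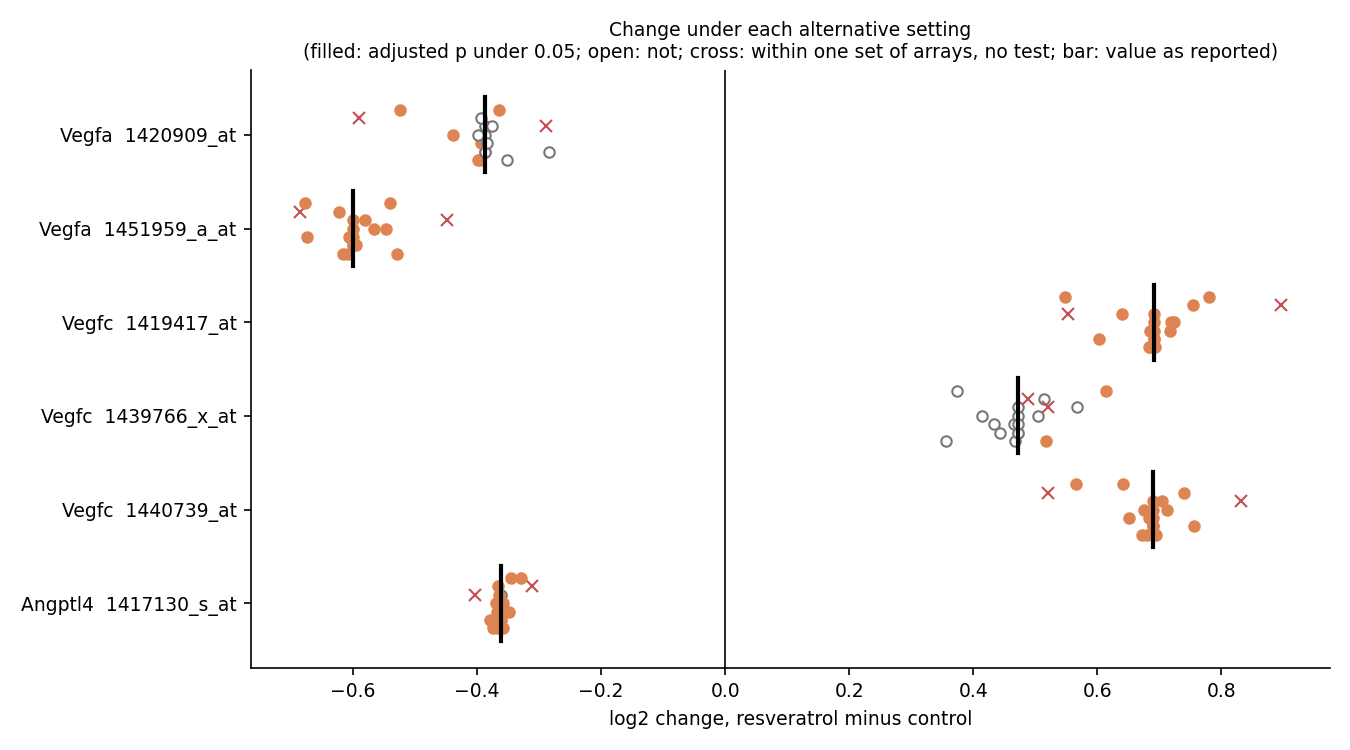
Log2 change of the Vegfa, Vegfc and Angptl4 probe sets under each alternative setting, filled where the adjusted p was under 0.05, open where not, and crosses for values within the arrays of brighter or dimmer spikes, which have no test. Black bars are the reported values. All points of Vegfa and Angptl4 lie below 0 and all points of Vegfc above 0.

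The arrays of brighter spikes set 2 controls against 1 treated array, and those of dimmer spikes 1 control against 2 treated arrays, so each difference rests on a single array in 1 group and has no test. Within the brighter and the dimmer arrays, the dimmer Vegfa probe set had -0.45 and -0.685 and the brighter one -0.29 and -0.59. The brightest Vegfc probe set had 0.83 and 0.52, the dimmest 0.55 and 0.90, and Angptl4 -0.40 and -0.31. With the spike split as a block, the brighter Vegfa probe set passed, at -0.44 with adjusted p = 0.0388.

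The receptors for these factors did not pass. Of 12 receptor and co-receptor genes with a probe set, 9 were tested with limma. By the brightest probe set none rose or fell, and none had an unadjusted p under 0.05. The median of these 9 genes was 0.11. Dimmer probe sets of Nrp1 (0.20), Pdgfra (0.37) and Itgb1 (-0.37) had an unadjusted p under 0.05. None of them passed (adjusted p = 0.145, 0.225 and 0.131). The VEGFR1 gene Flt1 had -0.11 (adjusted p = 0.559), going from 208 ± 14.3 to 191 ± 14.7 (SD, n = 3). The VEGFR2 gene Kdr and the VEGFR3 gene Flt4 were dim, at 40.8 and 53.6 and at 31.2 and 35.0, with differences of 0.30 and 0.11. The co-receptor Nrp1 had 0.12 (adjusted p = 0.453), Pdgfrb, a PDGF receptor, 0.18 (adjusted p = 0.299), and the integrin gene Itga5 0.19 (adjusted p = 0.319). Tek, the angiopoietin receptor of endothelium, and Tie1 were too dim to be tested, at 10.7 and 7.50 and at 2.63 and 0.767. The lipase that ANGPTL4 inhibits, Lpl, had -0.19 (adjusted p = 0.635). In its list of 6 genes of lipoprotein lipase and its handling none passed in limma, with 2 at an unadjusted p under 0.05 and a median of -0.18. Gpihbp1, which carries the lipase to the vessel wall, had 0.41 (adjusted p = 0.132), and the hormone-sensitive lipase gene Lipe -0.28 (adjusted p = 0.0763).

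**Figure D4:**
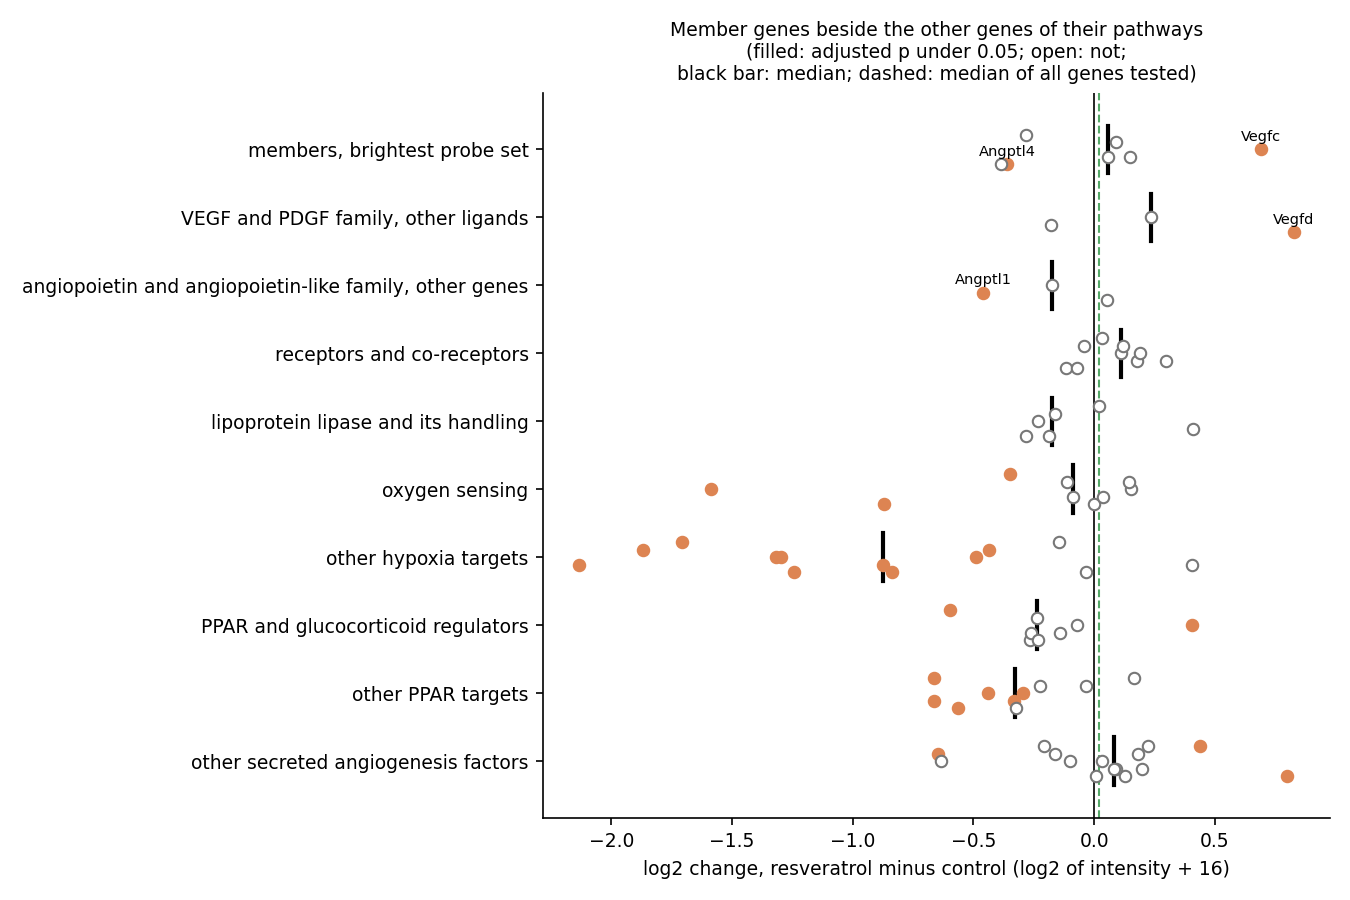
Log2 change of each tested gene (brightest probe set) for the 7 member genes and for 9 lists of related genes, filled where the adjusted p was under 0.05, with black bars at list medians and a dashed line at the median of all genes tested (0.02). Vegfc, Vegfd and Ccn1 lie farthest to the right, Vegfa (-0.39) and Angptl4 (-0.36) sit beside each other, and the hypoxia targets reach farthest to the left.

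A list of 13 other genes induced by low oxygen, as Vegfa and Angptl4 are, was taken, and it is not complete. Of these 13, 10 fell, none rose, and 3 did not pass, with a median of -0.87. Those with the smallest p were Ero1a (-1.71), which encodes an oxidase of protein folding, P4ha1 (-1.30), a collagen prolyl hydroxylase gene, Pdk1 (-2.13), a kinase that restrains pyruvate use, and Ankrd37 (-1.87). The 3 that did not pass, named after their values were seen, were the glucose transporter gene Slc2a1 with -0.03 (adjusted p = 0.882), the carbonic anhydrase gene Car9 with -0.15 (adjusted p = 0.754) and Adm, which encodes the vasodilator adrenomedullin, with 0.40 (adjusted p = 0.0821). Among all 12630 genes tested 5.21% fell. The list was chosen with earlier results of these data known, so its count beside this share is a description only. The part of low oxygen signalling in the Vegfa and Angptl4 results was not tested. Of the 10 calls, Pgk1 was lost without control replicate 1 or 2 (adjusted p = 0.129 and 0.153 from limma). It was also lost without resveratrol replicate 1, 2 or 3 (0.0783, 0.19 and 0.102). The Ddit4 call was lost without control replicate 2 or resveratrol replicate 3 (0.077 and 0.0504). Both were named after their values were seen. Of 9 genes of oxygen sensing 3 fell: the HIF prolyl hydroxylases Egln3 (-1.59) and Egln1 (-0.87), and Vhl (-0.35), whose product marks HIF for destruction. The Vhl call was lost without control replicate 2, resveratrol replicate 1 or resveratrol replicate 2, at adjusted p = 0.0552, 0.0535 and 0.0647. The transcripts of the HIF subunits themselves did not pass: Hif1a read 819 ± 45.5 in control and 820 ± 50.6 in treated cells (SD, n = 3, adjusted p = 0.998), and Epas1 had -0.09 (adjusted p = 0.633).

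Angptl4 is also a PPAR target. Of 10 other PPAR targets tested 6 fell and none rose, with a median of -0.33. Among all 12630 genes tested 5.21% fell and 5.32% rose. This list too was chosen with earlier results of these data known. It shares Fabp4 with the adipocyte markers, whose median was -0.27. The part of the PPARs in the Angptl4 result was not tested. Of these 6 calls 3 were lost without control replicate 2, and 3 without resveratrol replicate 2: Cd36 (adjusted p = 0.0532 and 0.0766), Plin2 (0.115 and 0.147) and Plin4 (0.168 and 0.159), all named after their values were seen. Hadha, Acadl and Acadvl, enzymes of fatty acid oxidation, had -0.66, -0.66 and -0.57. Among 8 regulators, the PPAR coactivator Ppargc1a fell by 0.60 on the log2 scale, and Rxra, the partner receptor of the PPARs, rose by 0.41. Pparg had -0.26 (adjusted p = 0.0610) and Ppard -0.26 (adjusted p = 0.0694).

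Among 15 other secreted regulators of vessels 2 rose, 1 fell and 12 did not pass, with a median of 0.08. Ccn1, a matrix-bound angiogenic protein, rose by 0.80 ± 0.11 (SE, adjusted p = 0.00174), with means of 530 ± 101 in control and 926.5 ± 55.6 in treated cells (SD, n = 3). Thbs1, the angiogenesis inhibitor thrombospondin 1, rose by 0.44 (adjusted p = 0.0418), a call lost without control replicate 1 or 2 or resveratrol replicate 1 or 3, at adjusted p = 0.113, 0.0915, 0.147 and 0.13. Igf1, an insulin-like growth factor gene, fell by 0.65, and without resveratrol replicate 2 it had -0.57 (adjusted p = 0.0519). Mmp2, a matrix protease gene, had 0.18 (adjusted p = 0.216). When a gene was taken as the mean over its probe sets, none of this list passed in limma, where 4 of the 15 had an unadjusted p under 0.05 by the brightest probe set.

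Over the 6 arrays, the genes whose log2 values followed the brightest Vegfc probe set most closely were Clca3a1 (Pearson r = 0.9994), Ppp1r2 (0.9953), Tln2 (0.9953), Pfkfb3 (0.9952) and Pear1 (0.9945). Clca3a1, of a family of chloride channel regulators, rose from a mean intensity of 520 to 1004, and Pfkfb3, an enzyme that controls glycolysis, from 730 to 1020. For Angptl4 they were Slc25a34 (0.998), Tmem39a (0.9977), Tapt1 (0.9974), Coq3 (0.9973) and Gstm1 (0.9965). Slc25a34, a mitochondrial carrier gene, fell from 89.0 to 28.8. With 6 arrays in 2 groups any clear group difference gives a high r: 216 other genes exceeded 0.95 with Vegfc and 313 with Angptl4, so these correlations are a description only.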

How the data were processed

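Biotin-labelled total RNA from 3 untreated and 3 resveratrol-treated cultures was hybridised to 6 one-colour arrays, per the labels' protocols. The deposited intensity values are linear, 1 per probe set; the authors scaled each array, since every column has the same trimmed mean (2% at each end), as read from the values, and their summarising software is not named in the labels. The column of control replicate 1 holds more decimals than the others. The 64 control probe sets among 45101 were not tested. In the platform annotation 34945 probe sets name 1 gene. Symbols were compared through Entrez numbers with RefSeq GRCm38.p6 (34741 matched, 0 differed).

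Values were turned into log2(intensity + 16), so changes at low signal are understated. The lmFit and eBayes (with trend) functions of limma 3.58.1, run under R 4.3.3, tested the 27022 probe sets in the top 60% by mean log2 value over the 6 arrays. Tests were 2-sided, p-values were adjusted by Benjamini-Hochberg across these probe sets, and the threshold was 0.05. The fit was also run on simulated arrays with known changes, which did not set the threshold and whose outcome is not given here. The brightest probe set stood for a gene. Lists are described by counts and medians. Named are all 9 factors, up to 4 genes of each list by smallest p with others a result turns on (such as receptors of the factors), and the 5 genes most correlated with Vegfc and with Angptl4. The genes and lists were chosen with earlier results of these data known.

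Alternatives were quantile normalization, median centring, offsets of 1 and 64, testing every probe set or the brightest 40%, eBayes robust or without trend, array weights, blocking on replicate number, the spike split, other ways of choosing probe sets, and leaving out each array. The reported fit did not pair the arrays by replicate number, since the labels give no pairing. Start-region sequences are RefSeq's (GRCm38.p6), found for 6 of the 9 genes. Figures were drawn with matplotlib 3.10.9 under Python 3.11.15.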

Additional observations from a re-analysis of the deposited data

How the results depend on the processing

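The number of the 12 probe sets passing, 4 as reported, was 3 to 6 over 17 alternatives. Both Vegfc probe sets reported as risen and the dimmer Vegfa probe set passed under all 17, and Angptl4 under all but the fit without an intensity trend. By gene, 2 passed. With probe sets that may cross-hybridise left out (suffixes _s_at, _x_at and _a_at; _a_at probe sets may instead match several transcripts of 1 gene) 1 of 5 genes passed, Vegfc, because Angptl4 and Vegfb then had no tested probe set. Over all probe sets, 2209 passed, 1396 with no filter, 861 with no intensity trend, and 1131 to 1952 with each array left out in turn. Leaving out arrays turned the sign of changes near 0. The dimmer Angpt1 probe set ranged from -0.011 (without control replicate 1) to 0.181, the brighter from -0.014 (without resveratrol replicate 3) to 0.202, and the dimmer Pdgfa probe set from -0.133 to 0.052 (without control replicate 3), with 0.025 without resveratrol replicate 3. With the replicate number as a block, 1894 probe sets and again 4 of the 12 passed. Same-numbered arrays had correlations of deviations of -0.06, -0.02 and 0.09, and differently numbered ones from -0.08 to 0.09. So few arrays cannot decide whether the numbers pair them, and the labels do not say. Under the block the Angptl1 call ended (adjusted p = 0.053). Lists with each gene as the mean over its probe sets gave 0 falls in the angiopoietin families (reported: 1), 1 rise in the hypoxia targets (0), 3 falls among the PPAR and glucocorticoid regulators (1), and 0 rises and 0 falls among secreted factors (2 and 1). With the spike split as a block, 2 regulators fell and 1 secreted factor rose. The causes were not tested. Signal limits Pgf, the second probe sets of Angpt2 and Angptl4, Kdr, Flt4 and Tek, which lie near or under the lowest level tested.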
